A study of Macaca mulatta with 24 samples.

Results

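Astrocyte genes were followed in RNA-Seq of the nucleus accumbens core (NAcc) of rhesus macaques. They are 33 genes of a fixed list of astrocyte markers, matched by symbol to the 17208 gene rows of the expression table, and all 33 were found. The rule that picks them uses no measured value. All 33 averaged at least 1 TPM (a measure of transcript level corrected for gene length and scaled to a fixed total in each animal), the minimum used for testing, which left 13637 genes in all.

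Astrocytes are the glial cells that surround synapses and blood vessels. They clear potassium and transmitter from the space around neurons, move water at the vessel wall, share small molecules through gap junctions and feed neurons with products of their metabolism. In response to injury or disease they often raise intermediate filament proteins such as GFAP, and GFAP is for that reason read as a sign of astrocyte reactivity as well as of astrocyte number. In RNA of a whole tissue piece, fewer astrocytes and less RNA per astrocyte cannot be told apart.

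The samples came from 24 unrelated adult male monkeys, 1 library each. The 8 controls drank water under the same conditions as the drinkers, the food delivery schedule included, and received a maltose dextrin solution to match calories. The 16 drinkers were induced to drink by a food delivery schedule and then had 12 months of daily 22 h access to 4% ethanol beside water, with no forced abstinence before the tissue was taken. LD* animals (8) all carry the label LD, and by the study's methods they pool light with binge drinkers, which the labels do not tell apart. They drank between 0.47 and 2.07 g/kg per day. HD* animals (8) were 4 heavy drinkers (HD, 2.74 to 3.09 g/kg) and 4 very heavy drinkers (VHD, 3.09 to 3.78 g/kg). The animals belonged to 4 cohorts, and the groups were spread unevenly over them. Cohort 5 had 3 controls with 4 HD* animals, cohort 7a had 2 controls, 3 LD* and 4 HD* animals, cohort 7b had 3 controls with 3 LD* animals, and the 2 animals of cohort 4 were LD*. HD and VHD animals were balanced, 2 of each in cohort 5 and in cohort 7a.

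The tissue held the defining markers of astrocytes in every animal, and 0 of the 33 genes was at 0 TPM in any of them. Together they took between 0.868% and 2.16% of an animal's total. Control 6 stood apart from the other animals, with a median correlation of 0.924 to them over all genes tested against 0.951 to 0.984 for the rest. A score of 15 neuron genes (the mean of log2(TPM + 1) after centring each gene on its mean over animals) was −1.89 in control 6 and between −0.92 and 0.72 in the others, and its score of 12 oligodendrocyte genes was the highest at 1.67. Counts over the 33 genes in the comparisons with controls are given with and without control 6. Counts by role and of the lists of other cell types include it. TPM values carry no depth, so it is unknown how many reads stand behind each of them, and no counting error is given.

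CLU, which encodes the secreted chaperone clusterin, and SPARCL1, a secreted matrix protein that promotes synapse formation, had the highest levels, with means of 2620 and 2596 TPM over the 24 animals. GFAP, the intermediate filament protein, averaged 2098 TPM, and NDRG2, an astrocyte-enriched cytoplasmic protein, 1897 TPM. These 4 stood well above the rest, and 18 of the 33 were above 100 TPM. Next came S100B, a calcium-binding protein that astrocytes also release (699 TPM), and AGT, the angiotensin precursor that astrocytes make in brain (456 TPM). The lowest were SLC14A1, a urea transporter (8.48 TPM), and CD44, the hyaluronan receptor (3.26 TPM).

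Genes were grouped loosely by role, with HEPACAM counted under transport and NDRG2 under metabolism. Among genes for water, ion and gap junction transport, means ran from 8.48 TPM for SLC14A1 to 269 TPM for ATP1B2, a sodium pump subunit. AQP4, the water channel of the astrocyte endfoot, averaged 215 TPM, its membrane partners MLC1 and HEPACAM 250.4 and 226 TPM, the gap junction proteins GJA1 and GJB6 228 and 78.0 TPM, and the bicarbonate transporter SLC4A4 54.7 TPM. Metabolic genes ran from 28.5 TPM for ALDH1L1, the folate enzyme used to mark astrocytes, over PPP1R3C (a glycogen-targeting phosphatase subunit, 54.9 TPM), CRYL1 (73.2 TPM), the mitochondrial glutamate carrier SLC25A18 (103 TPM), the fatty acid enzyme ACSBG1 (206 TPM) and the carbonyl reductase CBR1 (262 TPM) to NDRG2. Surface receptors ran from CD44 over BMPR1B (a BMP receptor, 17.02 TPM), EDNRB (an endothelin receptor, 72.9 TPM), FGFR3 (136 TPM) and GPR37L1 (137 TPM) to the neurotensin receptor NTSR2 (150.2 TPM). The remaining secreted or surface proteins were F3, tissue factor (34.3 TPM), and SERPINA3, a protease inhibitor of the acute phase (21.4 TPM). The transcription regulators SOX9, SOX2 and ID4 averaged 37.0, 88.4 and 71.1 TPM, RANBP3L, which acts in nuclear export, 34.8 TPM, and VIM, the filament protein vimentin, 169 TPM.

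The spread between animals was widest in 4 of these genes. SERPINA3 ran from 3.22 TPM in LD 8 to 94.97 TPM in VHD 4, a range of 29.5-fold, and SLC14A1 and CD44 spanned 20.7-fold and 18.2-fold. GFAP ran from 442 TPM in LD 8 to 6255 TPM in control 6, a range of 14.2-fold. The other 29 genes spanned less than GFAP, from 5.10-fold for GJA1 down to 1.74-fold for CRYL1. The median SD of log2(TPM + 1) over the 24 animals was 0.38 for the 33 genes and 0.32 for all genes tested, and 22 of the 33 were above the latter. Group membership took a median of 7.57% of a gene's variance among the 33 and 6.79% among all genes, and cohort took 20.1% and 15.3%. Each share was computed alone. Both shares hold a part that chance alone gives in 24 animals, so neither is the size of an effect. This part is larger for cohorts, which outnumber groups. Groups were spread unevenly over cohorts, so the shares overlap.

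**Figure D1:**
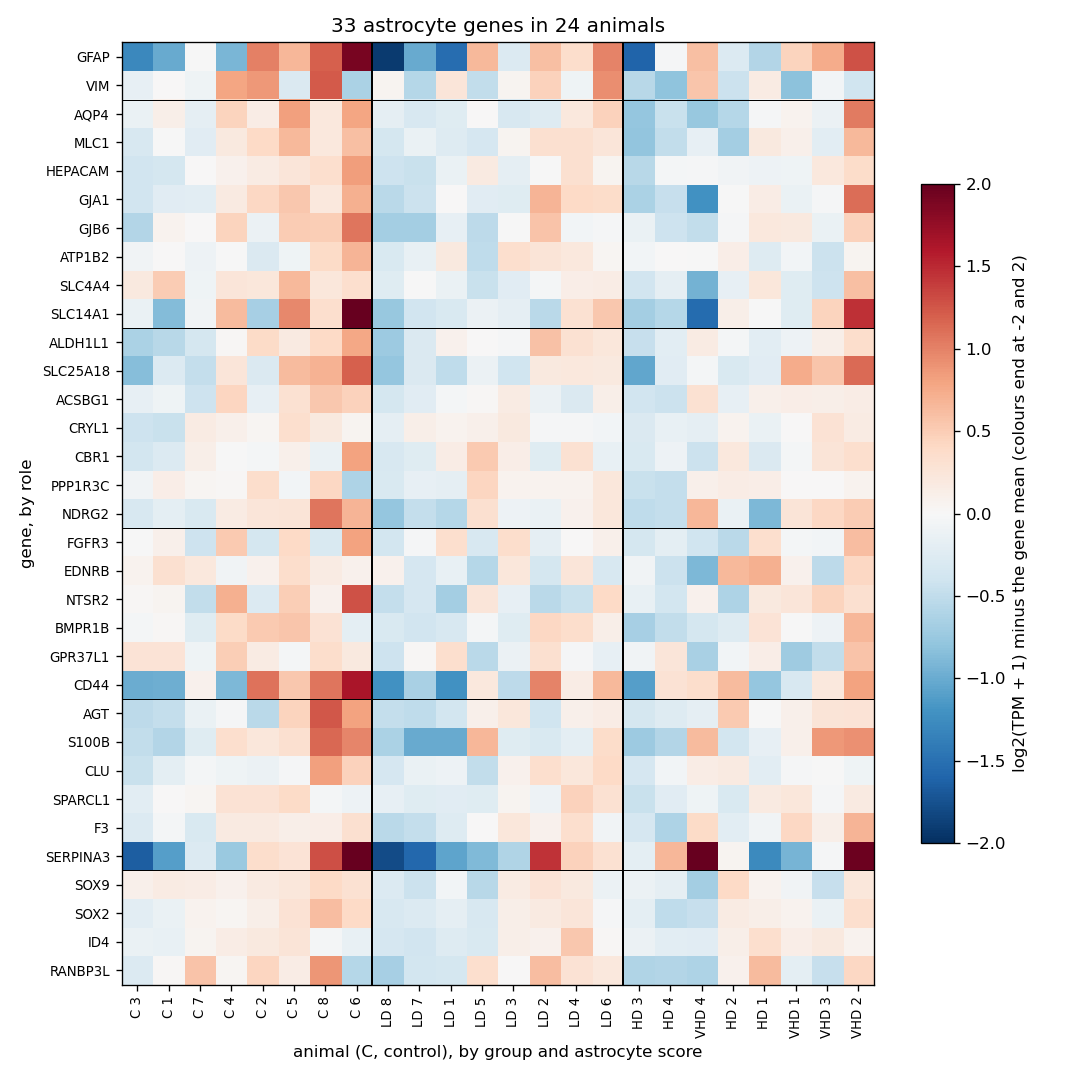
Level of each of the 33 astrocyte genes (rows, by role) in each of 24 animals (columns, by group and then by astrocyte score). Colour gives log2(TPM + 1) minus the gene's mean over animals, with the scale ending at −2 and 2, and strong colours stand in GFAP, CD44, SERPINA3 and SLC14A1 while high and low animals occur in each group.

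The first question was whether heavy drinking went with a different level of astrocyte genes. Of the 33 genes, 0 differed between HD* animals and controls at an adjusted p under 0.05 (limma on log2(TPM + 1), Benjamini-Hochberg over 13637 genes, n = 8 each), where the same was true of 0.0% of all genes tested. The paper, which tested read counts with DESeq2, reported many differing genes between HD* animals and controls and named AGT among them. That analysis was not repeated here, since the values used are TPM. In these values AGT ran from 298 over a median of 409 to 1024 TPM in controls. It ran from 340.3 over 447 to 623 TPM in HD* animals, so the groups overlapped. All fold changes below are on the log2(TPM + 1) scale, which understates those of weakly expressed genes.

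GFAP ran from 687 over a median of 2155 to 6255 TPM in controls and from 549 over 1959 to 4037 TPM in HD* animals. All HD* values but that of HD 3 lay within the range of the controls. The log2 fold change was −0.12 (SE 0.49, limma adjusted p = 0.925), and it was 0.0030 after TMM rescaling (trimmed mean of M-values, which sets the bulk of genes equal between animals), 0.14 with cohort in the model and 0.12 without control 6. AQP4 ran from 180.3 over 233 to 361 TPM in controls and from 120 over 169 to 419 TPM in HD* animals. Most HD* animals were low, and VHD 2 alone exceeded every control. For AQP4 the log2 fold change was −0.48 (SE 0.21, unadjusted p = 0.030, limma adjusted p = 0.706).

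ALDH1L1 ran from 17.4 over 29.6 to 47.9 TPM in controls and from 19.8 over 26.1 to 35.4 TPM in HD* animals, so that every HD* animal lay inside the control range. The log2 fold change was −0.076 (SE 0.19, limma adjusted p = 0.884), with the opposite sign after TMM rescaling (0.047) and with cohort in the model (0.084). GJA1 ran from 165 over 246 to 351 TPM in controls and from 91.9 over 203 to 468 TPM in HD* animals. Its lowest and its highest value over all animals were both in VHD animals, VHD 4 and VHD 2. For GJA1 the log2 fold change was −0.30 (SE 0.24, limma adjusted p = 0.707).

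The smallest p among the 33 was that of SLC4A4, the sodium bicarbonate cotransporter by which astrocytes buffer pH. It ran from 49.7 over 62.7 to 83.6 TPM in controls and from 26.9 over 45.8 to 81.2 TPM in HD* animals. The groups overlapped, with VHD 2 near the top of the control range. Its log2 fold change was −0.48 (SE 0.15, unadjusted p = 0.0049, limma adjusted p = 0.706). SOX9, a transcription factor of the astrocyte lineage, ran from 38.5 over 41.0 to 48.1 TPM in controls and from 22.3 over 34.0 to 48.1 TPM in HD* animals. Controls lay close together and HD* animals spread below them and up to their maximum, with a log2 fold change of −0.30 (SE 0.14, unadjusted p = 0.035, limma adjusted p = 0.706). GPR37L1, an orphan receptor of astrocytes, ran from 126 over 157 to 188 TPM in controls and from 81.1 over 128 to 198 TPM in HD* animals, with a log2 fold change of −0.33 (SE 0.16, limma adjusted p = 0.706).

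By counts, 3 of the 33 genes (SLC4A4, AQP4 and SOX9) were lower in HD* animals at an unadjusted p under 0.05 and 0 were higher, where 5.68% of all genes tested passed, 5.29% lower and 0.396% higher. This count depended on single animals. It was 8 of the 33 (2161 of all genes, in place of 775) without VHD 2, 7 without control 3, 6 without HD 1, 5 without control 7 and 2 without control 6, and it was 1 after TMM rescaling. The estimate was below 0 for 30 of the 33, and so it was for 77.8% of all genes. The median over the 33 was −0.16 and that over all genes −0.12. TMM rescaling moved the median of all genes to −0.0067 and that of the 33 to −0.037, with 22 of them below 0, and 22 were below 0 with cohort in the model, where the median of the 33 was −0.073 beside −0.12 for all genes. Without control 6, 25 were below 0 and their median was −0.085. All 8 transport genes (median −0.33) and all 6 surface receptors (median −0.20) had estimates below 0, the 7 metabolic genes lay near 0 (median −0.076), and the estimates above 0 were those of SERPINA3, ID4 and F3. The lists of oligodendrocytes and of their precursors were below 0 as well, in 12 of 12 genes (median −0.39) and in 6 of 6 (median −0.31). Of the neuron genes 10 of 15 were above 0 (median 0.30), and 0 of each list had an adjusted p under 0.05. The neuron score differed from that of controls by 0.21, and by −0.036 to 0.34 with each animal left out. It fell below 0 only without control 6. The difference in the oligodendrocyte score was −0.40, and −0.50 to −0.20 with each animal left out. The oligodendrocyte list summed to between 2926 and 10371 TPM in controls and between 2534 and 5414 TPM in HD* animals, and the neuron list to between 3340 and 14400.2 TPM and between 5968 and 12831 TPM, with 0 of their genes at 0 TPM in any animal. The part of these shifts in the astrocyte values was not tested.

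LD* animals were then set against the same controls. Between LD* animals and controls, 0 of the 33 genes passed an adjusted p of 0.05, beside 0.0% of all genes, and the smallest adjusted p was 1.00 (limma, n = 8 each). At an unadjusted p under 0.05, 4 of the 33 were lower and 0 higher, with 2.84% of all genes passing, 2.54% lower and 0.293% higher. Without control 6 it was 1 of the 33 (245 of all genes, in place of 387), and it was 1 without LD 8, 2 without LD 1, LD 7, control 4, control 5 or control 8, and 2 with TMM rescaling or with cohort in the model. These 4 were SLC4A4, NTSR2, SOX9 and GJB6. In LD* animals SLC4A4 ran from 38.9 over 50.0 to 58.8 TPM, and the highest LD* animal was below the control median. Its log2 fold change was −0.39 (SE 0.15, limma adjusted p = 1.00). NTSR2 ran from 101 over 149 to 344 TPM in controls and from 88.5 over 108 to 187 TPM in LD* animals, with overlap over most of the range and control 6 highest (log2 fold change −0.49, SE 0.21, limma adjusted p = 1.00, and −0.34 without control 6). SOX9 ran from 24.4 over 34.0 to 43.8 TPM in LD* animals, and 5 of the 8 were below every control.

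GJB6, like GJA1 a connexin of astrocyte gap junctions, ran from 49.1 over 89.8 to 157 TPM in controls and from 46.3 over 69.2 to 111 TPM in LD* animals. The groups overlapped, with control 6 highest and LD 2 above the other LD* animals. The log2 fold change was −0.43 (SE 0.20, limma adjusted p = 1.00) and −0.31 without control 6, and that of SOX9 was −0.30 (SE 0.14, limma adjusted p = 1.00). The estimate was below 0 for 32 of the 33 genes and above 0 for 1 (CRYL1), where 58.1% of all genes were below and 41.9% above 0, with medians of −0.21 and −0.025. It stayed below 0 for 29 of the 33 after TMM rescaling (median −0.18, 0.0088 for all genes), for 32 with cohort in the model and for 28 without control 6. Other cell types moved with it. Estimates were below 0 for 12 of 12 oligodendrocyte genes (median −0.47), 6 of 6 precursor genes, 10 of 10 microglia genes and 5 of 5 ependymal genes. They were above 0 for 14 of 15 neuron genes (median 0.30), and 0 of these genes passed an adjusted p of 0.05. The neuron score differed from that of controls by 0.24, and by −0.0098 to 0.36 with each animal left out. It fell below 0 only without control 6. The difference in the oligodendrocyte score was −0.43, and −0.57 to −0.24 with each animal left out. The oligodendrocyte list summed to between 1786 and 6915 TPM in LD* animals, the microglia list to between 343 and 680.3 TPM against 358 to 945 TPM in controls, and the neuron list to between 5930 and 12832 TPM, and their part in the astrocyte values was not tested. Both drinking groups were set against the same 8 controls, so the likeness of the 2 comparisons is no independent result.

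**Figure D2:**
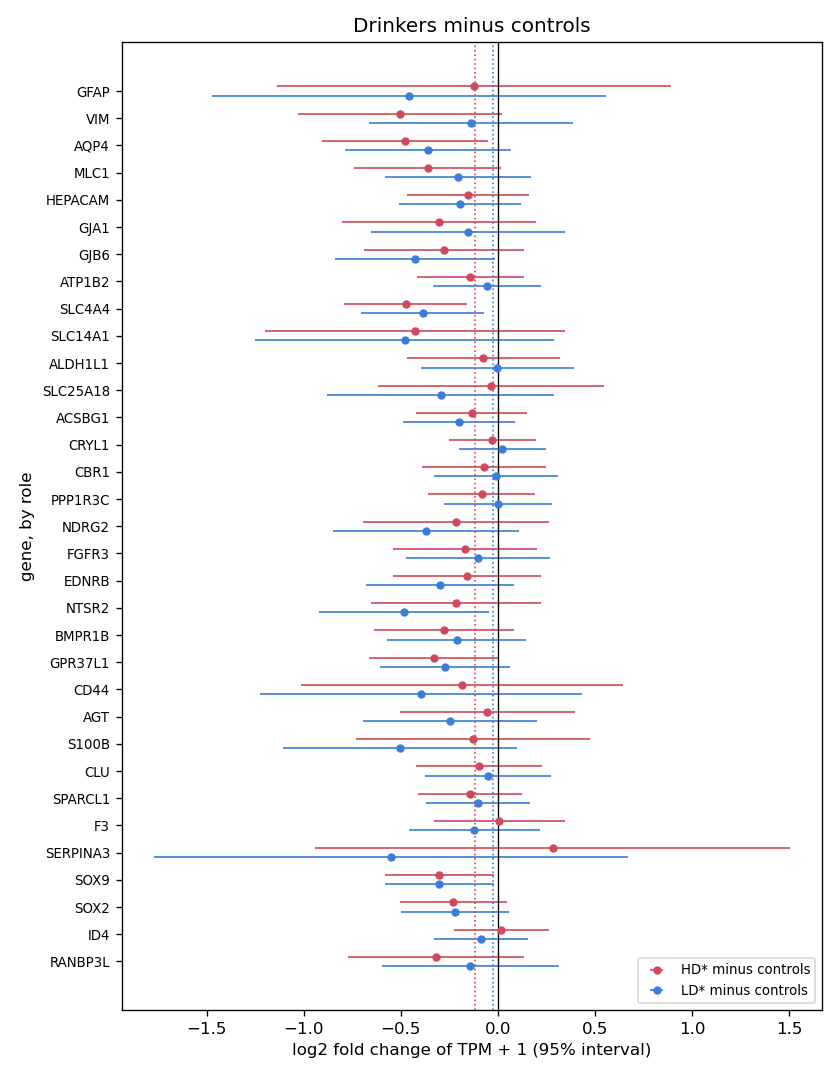
Log2 fold change of each astrocyte gene on the log2(TPM + 1) scale, with its 95% interval from limma, for HD* minus controls (red) and LD* minus controls (blue). Dotted lines mark the median of all genes tested, −0.12 and −0.025. Most points lie left of 0, and GFAP, SERPINA3, CD44 and SLC14A1 have the widest intervals.

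HD* and LD* animals were compared to ask whether the amount drunk mattered. At an adjusted p under 0.05, 0 of the 33 genes and 0.0% of all genes differed (limma, n = 8 each, smallest adjusted p 0.937), and 0 of the 33 did at an unadjusted p under 0.05, where 1.08% of all genes did. With cohort in the model, 2 of the 33 and 656 of all genes did, in place of 0 and 147, and 24 of the 33 estimates were above 0. The 4 smallest p-values were those of VIM (log2 fold change −0.37, SE 0.26), SERPINA3 (0.83, SE 0.59), S100B (0.38, SE 0.29) and NTSR2 (0.27, SE 0.21), each with a limma adjusted p of 0.937. VIM ran from 105 over 162 to 299 TPM in LD* and from 88.3 over 117 to 229 TPM in HD* animals. S100B ran from 315 to 1005 TPM in LD* and from 385 to 1205 TPM in HD* animals. SERPINA3 ran from 3.22 over 7.78 to 39.0 TPM in LD* and from 5.04 over 13.8 to 94.97 TPM in HD* animals, and the groups overlapped in all of these genes. The estimate was below 0 for 18 of the 33 and 73.3% of all genes, and for 6 of the 33 after TMM rescaling, so the direction of the list depends on the scaling.

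Among the 16 drinkers, a slope on daily intake was fitted with limma, and 0 of the 33 genes passed an adjusted p of 0.05, with 0.0% of all genes. At an unadjusted p under 0.05, NTSR2 had a slope above 0 and VIM one below 0, where 6.65% of all genes passed, 1.49% above and 5.16% below 0. With cohort in the model 4 of the 33 passed beside 4014 of all genes (907 without it), and the smallest adjusted p of the 33 was 0.134. Leaving out LD 1 or VHD 1 left 0 of the 33, and leaving out LD 4 or LD 8 left 1. The slope of NTSR2 was 0.22 per g/kg per day on the log2 scale (SE 0.092), that of VIM −0.25 (SE 0.12), that of S100B 0.30 (SE 0.15) and that of AGT 0.15 (SE 0.081), each with an adjusted p of 0.512. Of the 33 slopes 17 were above and 16 below 0, where 27.5% of all genes had slopes above and 72.5% below 0, and 26 of the 33 were above 0 after TMM rescaling but 14 with cohort in the model.

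The astrocyte score, the mean over the 33 genes of centred log2(TPM + 1) in an animal, gives the same comparisons in 1 value per animal and is described here without a test. Its mean ± SD was 0.14 ± 0.33 over the 8 controls, −0.096 ± 0.27 over the 8 LD* animals and −0.046 ± 0.29 over the 8 HD* animals. Controls ran from −0.33 to 0.63, LD* animals from −0.51 to 0.21 and HD* animals from −0.47 to 0.54, so the 3 groups overlapped over most of their ranges. The HD* mean lay 0.19 below that of controls, a distance smaller than the SD of either group. Leaving out each animal in turn kept this difference between −0.27 and −0.12, and that of LD* animals from controls (−0.24) between −0.30 and −0.17. The difference of HD* from LD* animals (0.049) ran from −0.034 to 0.11 and thus had no fixed sign.

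**Figure D3:**
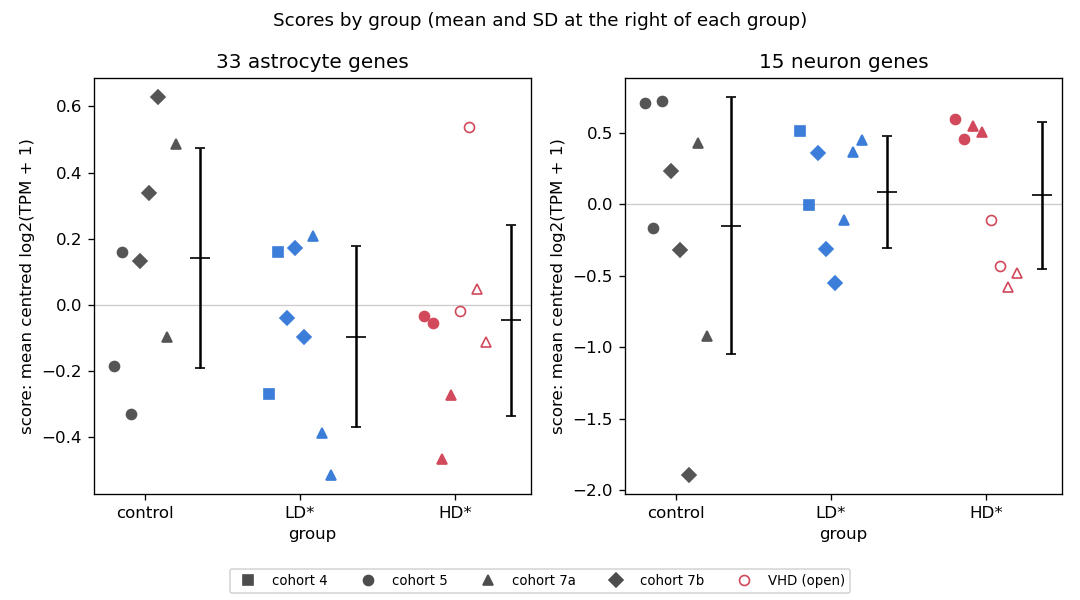
Score of the 33 astrocyte genes (left) and of 15 neuron genes (right) in each animal, by group. Marker shape gives the cohort, open symbols are VHD animals, and the bar at the right of each group is the mean with the SD. The 3 groups overlap in both scores, and the HD and VHD animals within HD* lie apart in the neuron score.

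The difference between HD* animals and controls did not have the same sign in the cohorts that held both. In cohort 5 the HD* mean of the astrocyte score was 0.23 above that of the 3 controls, and in cohort 7a it was 0.40 below that of the 2 controls (difference −0.40). Of the 33 genes, 28 had a higher mean in HD* animals than in controls in cohort 5, and 30 had a lower mean in cohort 7a. The difference between the cohorts was tested gene by gene as an interaction (limma, 13 animals). At an adjusted p under 0.05, 0 of the 33 genes and 0.0% of all genes passed, with a smallest adjusted p of 1.00. At an unadjusted p under 0.05, 7 of the 33 had a more positive HD* difference in cohort 5 and 0 a more negative one, where 1.72% of all genes had a more positive and 0.433% a more negative one.

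RANBP3L had the smallest p. In cohort 7a its HD* animals had 21.2, 21.6, 21.7 and 23.8 TPM against 49.7 and 62.0 TPM in the 2 controls, with no overlap. In cohort 5 its HD* animals had 28.8, 35.1, 44.5 and 51.9 TPM and the 3 controls 27.1, 33.5 and 44.8 TPM, with full overlap. The interaction was 1.47 on the log2 scale (SE 0.33, limma adjusted p = 1.00). For AGT the HD* animals of cohort 5 (429 to 623 TPM) lay above its controls (298 to 311 TPM), while those of cohort 7a (340.3 to 520 TPM) overlapped with controls of 394 and 1024 TPM, and the interaction was 1.42 (SE 0.41, limma adjusted p = 1.00). SOX2 and GJB6 were below both controls in all 4 HD* animals of cohort 7a and overlapped with the controls in cohort 5 (interactions 0.92, SE 0.25, and 0.96, SE 0.30, limma adjusted p = 1.00 each). In all, 32 of the 33 interactions were above 0 and 1 below, with 58.8% and 41.2% of all genes, and the median was 0.47 beside 0.058. Lists of other cells moved with it, in that 10 of 10 microglia genes (median 0.72) and 11 of 12 oligodendrocyte genes (median 0.59) were above 0, and 13 of 15 neuron genes (median −0.65) and 5 of 5 ependymal genes below 0, with 0 at an adjusted p under 0.05. Their part in the astrocyte values was not tested. With 2 controls in cohort 7a, of which control 8 had the second highest astrocyte score of all controls, these values rest on few animals.

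Cohort itself, tested with group in the model, changed 0 of the 33 genes and 0.0% of all genes at an adjusted p under 0.05 (limma F test, 24 animals). At an unadjusted p under 0.05 there were 4 of the 33, and 8.36% of all genes. These were CBR1, EDNRB, GJB6 and NTSR2, each with an adjusted p of 0.540. CBR1, NTSR2 and GJB6 had higher means in cohort 7b (323, 196 and 93.7 TPM) than in cohort 7a (234, 137 and 65.4 TPM), and EDNRB was highest in cohort 5 (90.4 TPM against 61.4 TPM in cohort 7a). Control 6 belongs to cohort 7b, and without it 1 of the 33 and 690 of all genes (in place of 1140) had an unadjusted p under 0.05. With array weights it was 19 of the 33 and 2765 of all genes.

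Within HD* animals, HD and VHD animals were compared. Of the 33 genes, 5 were higher in VHD animals at an adjusted p under 0.05 and 0 were lower (limma, n = 4 each), where 3.23% of all genes tested were higher and 11.4% lower (14.6% in all). The 5 were S100B, NDRG2, GFAP, SLC25A18 and F3. At an unadjusted p under 0.05, 8 of the 33 were higher, NTSR2, ACSBG1 and MLC1 with them, where 8.08% of all genes were. S100B and NDRG2 passed under every alternative, but F3 lost its call without HD 2, HD 3 or HD 4, SLC25A18 without HD 3 or VHD 3 and GFAP without VHD 3, and GFAP and SLC25A18 also without a filter on low values. Leaving out each animal gave between 3 and 7 of the 33 and between 476 and 4651 of all genes. Not all of these calls were in the higher direction. Without VHD 2, GPR37L1 passed and was lower in VHD animals (log2 fold change −0.68, SE 0.13, limma adjusted p = 0.0045). In that fit 10 of the 33 estimates were below 0, in place of 6.

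S100B stood at 567, 491, 385 and 423 TPM in HD 1 to HD 4 and at 680.3, 1205, 1159 and 982 TPM in VHD 1 to VHD 4. Every VHD animal was above every HD animal. Its log2 fold change was 1.09 (SE 0.19, limma adjusted p = 0.0069). NDRG2 stood at 964, 1632, 1268 and 1285 TPM in HD animals and at 2143, 2559, 2377 and 2848 TPM in VHD animals, again without overlap (log2 fold change 0.96, SE 0.17, limma adjusted p = 0.0070).

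GFAP stood at 1110, 1384, 549 and 1641 TPM in HD and at 2277, 4037, 2795 and 2536 TPM in VHD animals. The groups did not overlap, and the gap between the highest HD and the lowest VHD animal was smaller than the range within either. The log2 fold change was 1.39 (SE 0.30, limma adjusted p = 0.0135), the largest of the 33. SLC25A18 stood at 80.4, 76.7, 45.9 and 81.1 TPM in HD and at 159.9, 208, 140.1 and 92.2 TPM in VHD animals, with VHD 4 close to the HD animals (log2 fold change 1.05, SE 0.25, limma adjusted p = 0.0187). F3 stood at 31.8, 28.7, 26.4 and 21.6 TPM in HD and at 44.9, 54.1, 36.4 and 44.0 TPM in VHD animals (log2 fold change 0.71, SE 0.17, limma adjusted p = 0.0215). HD 1, HD 2, VHD 1 and VHD 2 came from cohort 5 and the other 4 from cohort 7a. The differences were above 0 in both cohorts for all 5 genes, with GFAP at 1.29 in cohort 5 and 1.49 in cohort 7a and S100B at 0.78 and 1.40.

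Beside controls and LD* animals, the VHD animals were not at an extreme in most of these genes. The VHD values of S100B, NDRG2, GFAP and SLC25A18 lay within the range of the 8 controls, and the HD values of S100B and NDRG2 lay at or below the lower part of it. F3 differed in that 3 of the 4 VHD animals were above the highest control, 42.2 TPM. ACSBG1 was the sixth gene without overlap between HD and VHD animals (150.0 to 217 TPM against 220 to 249 TPM), and its adjusted p was 0.0763 (limma). Without overlap, 6 of the 33 genes were higher in VHD animals and 0 lower, where 5.39% of all genes were higher and 17.9% lower.

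**Figure D4:**
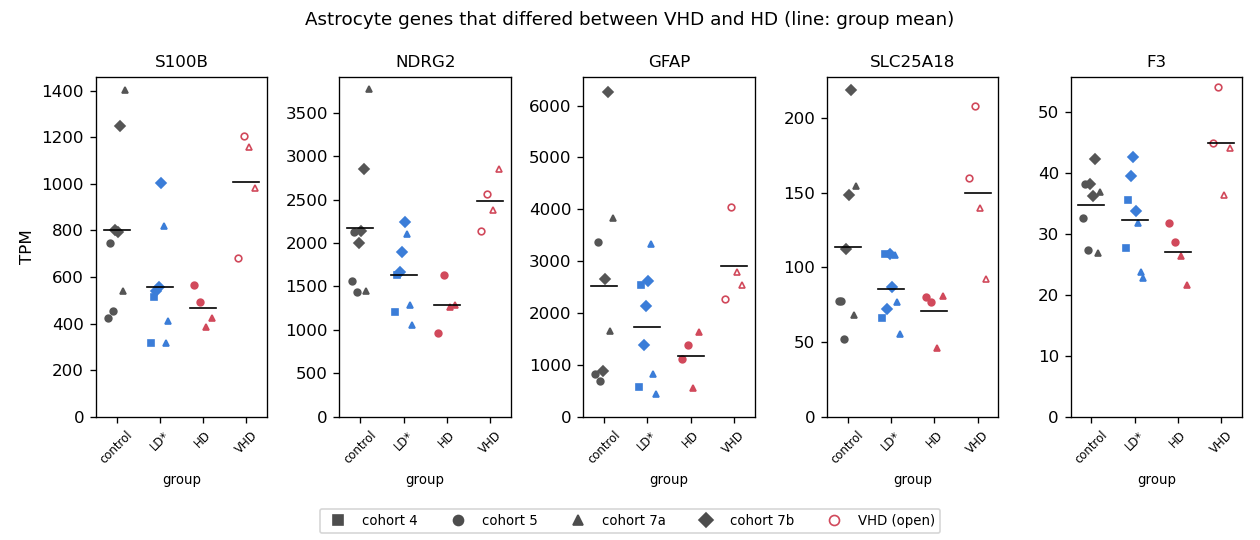
TPM of the 5 astrocyte genes with an adjusted p under 0.05 between VHD and HD animals, in each animal of all groups. Lines are group means, marker shape gives the cohort and open symbols are VHD animals. In each panel the 4 VHD animals lie above the 4 HD animals, while controls and LD* animals spread widely, and in F3 3 VHD animals lie above all controls.

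By role, the 7 metabolic genes and the 6 secreted or surface proteins all had estimates above 0 (medians 0.36 and 0.49), and 2 of each passed. In the metabolic group these were SLC25A18 and NDRG2, the latter placed there only loosely. Both filament genes were above 0, with VIM at 0.23. Of the 8 transport genes 6 were above 0 and 0 passed (median 0.24), and of the 4 nuclear regulators 2 were (median −0.045). The lowest estimates were those of the receptors EDNRB (−0.44, SE 0.31) and GPR37L1 (−0.38, SE 0.24) and of SOX9 (−0.29, SE 0.21), with limma adjusted p-values of 0.340, 0.294 and 0.360. In all, 27 of the 33 estimates were above and 6 below 0, where 34.8% of all genes were above and 65.2% below 0, and the medians were 0.23 and −0.17. TMM rescaling moved the median of all genes from −0.17 to 0.0057 and that of the 33 to 0.43, with 30 above 0 and 8 past the threshold, the same 5 with ALDH1L1, MLC1 and NTSR2. Of all genes called, 441 of 1997 were higher in VHD animals before and 1170 of 2581 after this rescaling.

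Markers of other cells moved with this difference. Of 15 neuron genes, 11 were lower in VHD animals and 0 higher at the same threshold, among them the dopamine receptor gene DRD1 (log2 fold change −1.20, SE 0.19, limma adjusted p = 0.0049) and the striatal phosphodiesterase gene PDE10A (−1.61, SE 0.21, limma adjusted p = 0.0036). The neuron list summed to between 11472 and 12831 TPM in HD and between 5968 and 7638 TPM in VHD animals, and to between 3340 and 14400.2 TPM in controls, with 0 of its genes at 0 TPM. Of 10 microglia genes, 6 were higher in VHD animals and 0 lower, among them AIF1 (1.11, SE 0.22, limma adjusted p = 0.0096), and the list summed to between 393 and 508 TPM in HD and between 515 and 899 TPM in VHD animals, with 0 genes at 0 TPM. The oligodendrocyte list had 1 of 12 genes higher (MBP), the precursor list 0 of 6, the endothelial list 0 of 7 tested, and the ependymal list 1 of 5 tested (PIFO). Of 7 genes used as housekeeping references, ACTB and TOP1 were lower and 0 higher. The part of these shifts in the astrocyte values was not tested.

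Other astrocyte genes, which were not among the 33, were read in the same comparisons. A second list of 16 held transporters and enzymes such as SLC1A2, the main glutamate transporter, and GLUL, glutamine synthetase, of which 15 were found. Lists of 16 reactive genes (11 tested) and 14 genes of astrocyte specification such as NOTCH1 and NFIA (14 tested) were also used. None of these lists had a gene past an adjusted p of 0.05 between HD*, LD* and control animals, in the slope on intake, over cohorts or in the interaction (limma, 0.0% of all genes in each). Between VHD and HD animals, MT3, a brain metallothionein, was higher (1618 to 2281 against 2119 to 3474 TPM, log2 fold change 0.58, SE 0.18, limma adjusted p = 0.0499), and so was TIMP1, an inhibitor of matrix proteases (8.24 to 27.5 against 35.4 to 57.2 TPM, log2 fold change 1.32, SE 0.31, limma adjusted p = 0.0178). These made 1 of 15, 1 of 11 and 0 of 14, and the medians of the 3 lists were 0.30, 0.16 and 0.19. Across the 24 animals, the astrocyte score correlated with the score of the second list at r = 0.97 and with that of the reactive list at r = 0.90.

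The 33 genes varied together across animals, more than genes in general did. The mean of their 528 pairwise correlations of log2(TPM + 1) was 0.40, against 0.15 between all genes tested, and 30 pairs were negative. These correlations are across 24 animals that share groups and cohorts and are given as a description. GFAP and CD44 formed the highest pair (r = 0.93), followed by S100B and NDRG2 (0.89), GFAP and HEPACAM (0.86) and ALDH1L1 and HEPACAM (0.84). AQP4 went with its partner MLC1 (0.83), and GJB6 with SOX2 (0.83).

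Each gene was also set against the mean of the other 32, and the correlation was above 0.5 for 23 of them, with a median of 0.67. HEPACAM, a cell adhesion protein that anchors MLC1 at astrocyte contacts, was highest (0.89), followed by SLC25A18 (0.86), ALDH1L1 (0.83) and GFAP (0.82). Within cohorts 5, 7a and 7b, HEPACAM kept values of 0.97, 0.90 and 0.84. At the other end were EDNRB (0.19), VIM (0.21), PPP1R3C (0.24) and GPR37L1 (0.27). EDNRB went instead with SOX9 (0.78), GPR37L1 with SLC4A4 (0.71) and VIM with PPP1R3C (0.56). PPP1R3C and RANBP3L turned from 0.88 and 0.75 in cohort 7a to −0.94 and −0.79 in cohort 7b. Without control 6, where PPP1R3C was lowest (34.9 TPM), their values over all remaining animals went from 0.24 and 0.47 to 0.61 and 0.69.

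The astrocyte score ran against the neuron score. Over the 24 animals r was −0.77 and rho −0.70, and r was −0.64 without controls 6 and 8, the animals farthest from the median. Within cohorts 5, 7a and 7b r was −0.87, −0.83 and −0.76. The score of the microglia list went with the astrocyte score at r = 0.82, that of the oligodendrocyte list at 0.40 and that of the endothelial list at 0.12. TPM values share a fixed total, so a lower share of some genes raises the share of others.

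**Figure D5:**
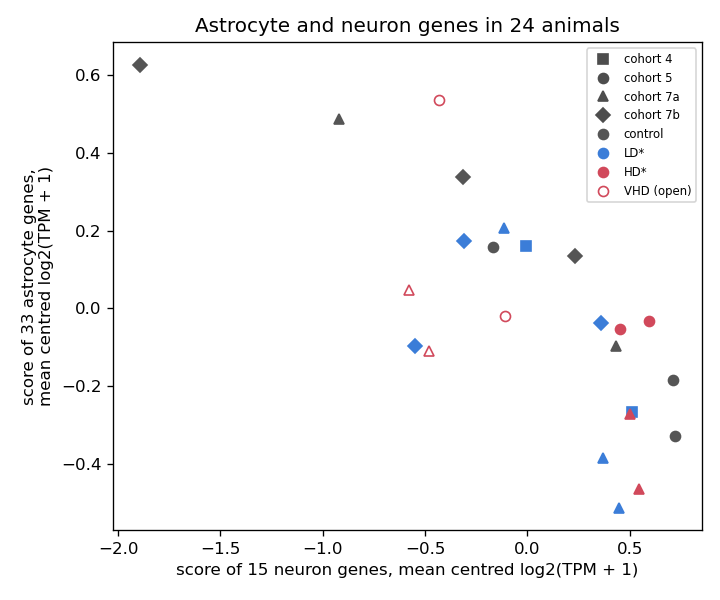
Astrocyte score (vertical) against neuron score (horizontal) in 24 animals, both as means of centred log2(TPM + 1). Colour gives the group, shape the cohort, and open symbols are VHD animals. The points fall from upper left (control 6 at −1.89 and 0.63) to lower right, and all 4 HD animals lie at the right, at neuron scores of 0.45 to 0.59.

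Single astrocyte genes divided in this respect. At an adjusted p under 0.05 (permutation, 100000 resamples, two-sided, Benjamini-Hochberg over 13637 genes), 19 of the 33 correlated negatively with the neuron score and 0 positively, where 18.6% of all genes did so negatively and 31.2% positively. By rho it was also 19, and 17 passed by both. The permutations exchanged all 24 animals freely, although these share groups and cohorts, so the p-values take no account of either. The correlations with the neuron score were added after the data were seen. The sign was negative for 31 of the 33, for 28 without controls 6 and 8, and in all of cohorts 5, 7a and 7b for 21. The median r of the 33 was −0.52, against 0.15 for all genes.

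HEPACAM had the strongest relation (r = −0.87, −0.77 without controls 6 and 8). GFAP was at r = −0.83 and rho = −0.86 (permutation p = 1e-05 each, the smallest the permutations can give, adjusted p = 0.000102 and 8.13e-05), at −0.82 without the 2 farthest animals, and at −0.98, −0.79 and −0.94 in cohorts 5, 7a and 7b. S100B and NDRG2 were each at −0.83, and SLC25A18, ALDH1L1, CD44 and SERPINA3 lay between −0.79 and −0.71. F3 was at −0.62.

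Other members had values of r near 0 over all animals. ID4, SLC4A4, RANBP3L, VIM, SOX9 and PPP1R3C had r between −0.086 and −0.038. EDNRB and GPR37L1 had 0.20 and 0.12, and the adjusted p-values of these genes ran from 0.430 to 0.891 (permutation). Not all stayed near 0 without controls 6 and 8. There r was −0.47 for PPP1R3C, 0.41 for GPR37L1, 0.39 for EDNRB and 0.32 for SOX9. For the rest of this set it lay between −0.28 (ID4) and 0.15 (SLC4A4). For EDNRB r was 0.26, 0.26 and 0.11 in cohorts 5, 7a and 7b, but PPP1R3C and VIM had opposite signs in cohorts 7a (−0.81 and −0.77) and 7b (0.68 and 0.74). SLC4A4 and SOX9, with the smallest and the third smallest p between HD* animals and controls, belong to this second set. AQP4 lay between (r = −0.52, adjusted p = 0.0223, and −0.39 without controls 6 and 8).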

How the data were processed

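RNA of the NAcc core of 24 rhesus macaques was measured by RNA-Seq, 1 library per animal, and all 24 columns were used. Per the labels and the paper's methods, the authors prepared polyA-selected libraries, aligned reads to the MacaM assembly with STAR 2.5.2b and counted them with HTSeq 0.6.1p1. Strand and read pairing are described differently in different places of the sources, so genes that overlap others on the opposite strand are uncertain. The deposited values are TPM made by the authors (columns sum to between 999998 and 1000000). The gene lengths used are not given in the sources used here. Depth is not recorded in TPM, so count models, counting intervals and floors were not used.

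Groups came from the labels, with HD and VHD pooled as HD*. Nothing pairs animals between groups, and p-values measure the spread between animals. On the log2(TPM + 1) scale, limma 3.58.1 (R 4.3.3, empirical Bayes with a trend) was run on the 13637 of 17208 genes whose mean reached 1 TPM. Its p-values are two-sided, and Benjamini-Hochberg adjustment covered all of these genes, with a threshold of 0.05. Controls, LD* and HD* shared 1 fit. VHD against HD used the 8 HD* animals, the intake slope the 16 drinkers, the cohort test all animals with group in the model, and the interaction those of cohorts 5 and 7a that were HD* or control. Plots were drawn with matplotlib 3.10.9, and pandas 2.3.3, scipy 1.17.1 and numpy 2.4.6 (Python 3.11.15) gave scores, correlations and permutations. The scripts were tested on simulated data.

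Genes were named by a rule, with statistics for GFAP, AQP4, ALDH1L1 and GJA1 between HD* animals and controls, for the 4 of the 33 with the smallest p in each comparison and for all past the threshold, and of other lists those past the threshold and at most 2 more. Genes named for their correlations and for other values were chosen after their values were seen. The 33 genes, the other lists and the tests were chosen with earlier results of these data known. Alternatives were pseudocounts of 0.1 and 8, no filter, a minimum mean of 10 TPM, TMM rescaling (trimming 30% of M and 5% of A values), array weights, cohort as a covariate, cohorts 5 and 7a alone, the median in place of the mean for the score, and each animal left out in turn. The cohort test without control 6 and the correlations with the neuron list were added after seeing the data. All 33 symbols occur in RefSeq T2T-MMU8v2.0, another build than the authors', so no coordinates are given. Sequences and transcript variants were not analysed here.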

Additional observations from a re-analysis of the deposited data

Results flagged for a closer look

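Of 102 tests of the highest and lowest animal, over the 33 genes and the astrocyte score in 3 groups of 8, 9 found an animal far from the others of its group. Chance flags about 1 in 20 groups where values are normally distributed and independent. TPM of genes that vary together in the same animals need not meet this, so the number to be had by chance is unknown. All 9 were the highest animal of their group. VHD 2 stood above the other HD* animals in AQP4 (419 TPM, next 214), GJA1 (468 TPM, next 237) and SLC14A1 (21.03 TPM, next 9.88). Control 6 stood above the other controls in SLC14A1 (36.2 TPM, next 14.5), CBR1 (449 TPM, next 279) and SERPINA3 (86.9 TPM, next 34.8). Among LD* animals, LD 2 was far above the rest in GJB6 (111 TPM, next 74.1) and SERPINA3 (39.0 TPM, next 19.1), and LD 4 in ID4 (102 TPM, next 76.4). The part of tissue composition in these values was not tested.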

How the results depend on the processing

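No paired analysis was possible because each library came from a different animal and nothing pairs animals between groups. Between HD*, LD* and control animals, in the intake slope, over cohorts and in the interaction, 0 of the 33 genes passed under each alternative run. Between VHD and HD animals the number of the 33 past the threshold was 5, and it was 3 without a filter on low values (GFAP and SLC25A18 then had limma adjusted p = 0.0531 and 0.0595), 8 with TMM rescaling and 15 with array weights, where 7613 of all genes passed in place of 1997. Leaving out each animal gave between 3 and 7 of the 33 and between 476 and 4651 of all genes. The 3 came without HD 3 or VHD 3, and the all-gene count was 476 without VHD 3, 607 without HD 3, 681 without HD 2, 723 without HD 4, 1094 without HD 1 and 4651 without VHD 2, with the cause not tested. Without VHD 2, GPR37L1 passed as lower in VHD animals (log2 fold change −0.68, SE 0.13, limma adjusted p = 0.0045). F3 lost its call without HD 2, HD 3 or HD 4, SLC25A18 without HD 3 or VHD 3 and GFAP without VHD 3 (limma adjusted p between 0.052 and 0.072), while S100B and NDRG2 passed under every alternative. Between HD* animals and controls, GFAP (main value −0.12) was 0.0030 with TMM rescaling, 0.14 with cohort in the model, 0.070 in cohorts 5 and 7a alone, and between −0.33 and 0.12 with each animal left out. It was above 0 without control 6, control 8 or HD 3. ALDH1L1 (−0.076) was 0.047, 0.084 and 0.099 in the same 3 settings, 0.019 with array weights, and between −0.17 and 0.032 with each animal left out. These estimates were far from the threshold throughout. The paper gives an average depth over samples but not the depth of each animal, so low genes such as CD44 and SLC14A1 have an unknown counting error.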
